A study of Saccharomyces cerevisiae with 4 samples.

Results

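The 10 genes described here encode the proteins that bring glucose into the budding yeast cell and attach its first phosphate: 6 hexose transporters (HXT1, HXT2, HXT3, HXT4, HXT5 and HXT7) and 4 sugar kinases (HXK1, HXK2, GLK1 and EMI2). They were chosen by name, as rows of a table of 7126 features. All 10 are in that table and all 10 had a mean of at least 5 normalised reads over the libraries, the limit that 5642 features passed. RNA-seq was run on total RNA of Saccharomyces cerevisiae strain DPY438, genotype Hsf1-AA. In this anchor-away strain rapamycin tethers the heat shock factor Hsf1 to a protein that leaves the nucleus, which removes it from its target genes.

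The series concerns how Hsf1 acts on the loci of its targets under heat stress. Its 4 groups were 10 min at 39 °C with 1 µM rapamycin given for 45 min, 10 min at 39 °C without rapamycin, 30 °C with the same rapamycin treatment, and 30 °C without it. Each group is 1 library of the same strain. There was thus no replicate check of any difference, and the ratios between single libraries carry no test; an additive model over all 4 libraries was fitted as an alternative. All groups carry the anchor-away genotype; a strain without it is not analysed here, so removal of Hsf1 and other actions of rapamycin cannot be told apart. The labels do not say whether rapamycin was added before the heat.

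Yeast takes up hexoses by facilitated diffusion through a family of related carriers that differ in their affinity for glucose. Low-affinity carriers serve cells in plentiful sugar, and high-affinity carriers are made when glucose is scarce. Inside the cell a hexokinase or glucokinase traps the sugar as glucose 6-phosphate, the entry point to glycolysis, glycogen and trehalose. Hxk2 is the main kinase of cells growing on glucose and also takes part in glucose repression, whereas HXK1 and GLK1 are known as glucose-repressed genes.

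The libraries held between 1561620 and 3231228 assigned reads. Values are normalised reads as deposited, and 1 read was worth 0.961 units in heat shock with rapamycin, 1.5 in heat shock without it, 0.888 at 30 °C with rapamycin and 1.43 at 30 °C without it. The 10 genes together took 0.892%, 0.850%, 0.195% and 0.254% of the reads in that order of libraries. The ranges in parentheses after a fold are 95% counting intervals and leave out variation between cultures. A 2-fold difference is a rule of size here. In bulk RNA, fewer cells with a transcript and less of it per cell cannot be told apart. HSF1 itself read 225 in heat shock with rapamycin and 288 without, against 107 at 30 °C with rapamycin and 157 without, which does not check the removal of the protein. FPR1, the gene of the rapamycin receptor, was listed at 0 in all 4 libraries, where 3 reads would be worth between 2.67 and 4.50 units, and TOR1 read between 425 and 576. The labels give no mating type. All 4 MATalpha markers were present at 67.5 units or more in every library, while of 5 MATa markers the pheromone genes MFA1 and MFA2 had at most 1 read in any, and STE2, BAR1 and STE6 read between 2.67 and 82.6.

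Position and sequence limit what can be said of single transporters. HXT4 (YHR092C, chrVIII:287081-288811), HXT1 (YHR094C, chrVIII:290913-292625) and HXT5 (YHR096C, chrVIII:294669-296447) lie in a row on the same strand, with 2101 and 2043 bases between their coding regions. HXT7 (YDR342C, chrIV:1154216-1155928), HXT6 (YDR343C, chrIV:1159608-1161320) and HXT3 (YDR345C, chrIV:1162957-1164660) form another row. HXT2 (YMR011W) is at chrXIII:288079-289704. The kinase genes are apart from each other, HXK2 (YGL253W) at chrVII:23935-25395, HXK1 (YFR053C) at chrVI:253592-255049, GLK1 (YCL040W) at chrIII:50838-52340 and EMI2 (YDR516C) at chrIV:1474974-1476476. All coordinates span protein-coding regions in the R64 assembly, the one that sacCer3 names. The coding sequences of HXT7 and HXT6 differ at 3 of 1713 positions, and only 4.93% of the 50-base windows of HXT7 occur once in the genome. The share is 85.1% for HXT3, between 95.01% and 97.5% for HXT1, HXT4 and HXT5, and 100% for HXT2 and the 4 kinase genes. The level of HXT7 therefore depends on how reads shared with HXT6 were counted, and the sources used here do not give this. Among the kinases, HXK1 and HXK2 share 77.8% of their aligned coding bases and GLK1 and EMI2 69.0%.

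In heat shock the carrier genes HXT2, HXT5 and HXT7 and the kinase genes HXK1, GLK1 and EMI2 stood at least 2-fold above their 30 °C level, in both drug arms. HXT5 had the largest ratio of the 10 genes, followed by HXK1. HXT3, HXT4 and HXK2 stayed within 2-fold of their 30 °C level, and HXT1 was lower. Without rapamycin 6 of the 10 genes were at least 2-fold higher in heat shock and 1 was lower by as much. Over all 5642 features, 19.8% passed 2-fold upwards and 19.3% downwards. With rapamycin the counts were 6 higher and 0 lower, beside 18.3% and 14.6% of all features. The median log2 ratio of the 10 genes was 1.66 with rapamycin and 2.46 without, where that of all features was -0.00 and 0.02.

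**Figure D1:**
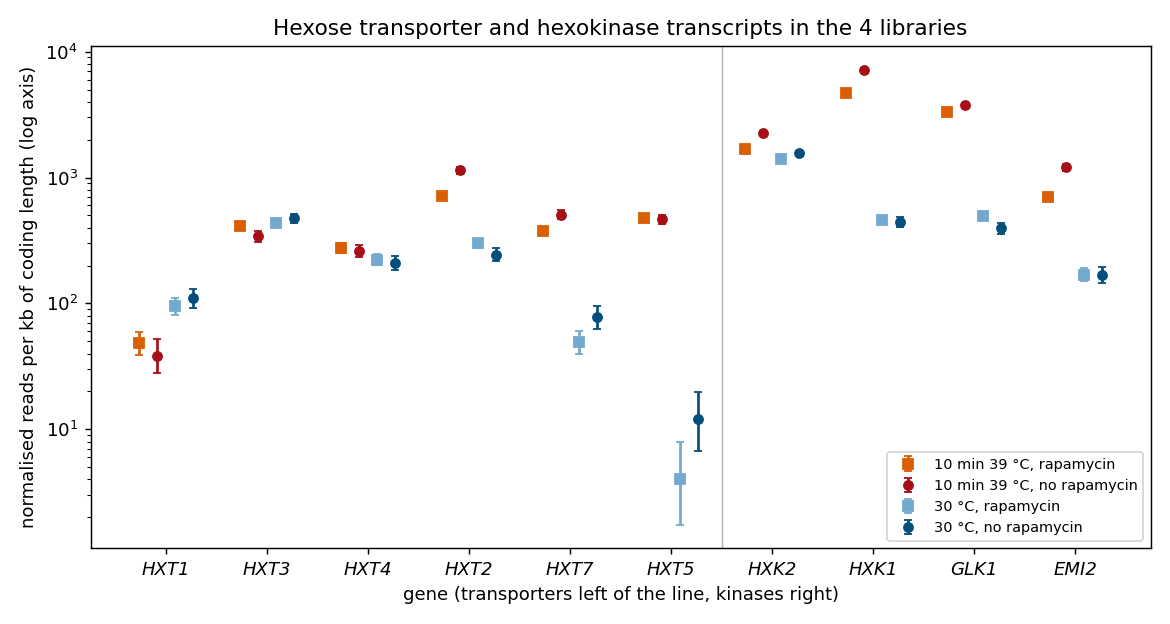
Normalised reads per kb of coding length (log axis) for the 10 genes, with 1 point per library and 95% Poisson counting intervals; squares are libraries with rapamycin and circles those without. The heat shock points (orange and red) stand above the 30 °C points (light and dark blue) for HXT2, HXT7, HXT5, HXK1, GLK1 and EMI2, and HXT5 spans the widest range, between 4.00 and 477 reads per kb.

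HXT1 encodes a low-affinity carrier that is known to be induced by high glucose. It read 82.6 in heat shock with rapamycin and 66.0 in heat shock without, against 163 at 30 °C with rapamycin and 189 at 30 °C without. Both heat shock libraries were below both 30 °C libraries. Heat shock levels were 1.96-fold lower with rapamycin (1.51 to 2.57) and 2.83-fold lower without (2.02 to 4.12).

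HXT3, the other low-affinity carrier gene, had ratios nearer to 1. It read 700.4 in heat shock with rapamycin and 583 without, against 745 at 30 °C with rapamycin and 812 without. It was 1.06-fold lower in heat shock with the drug (0.962 to 1.18) and 1.39-fold lower when the drug was absent (1.22 to 1.59), and the ratio with the drug was above 1 after division by the total of the library. HXT4, whose product has a higher affinity, read 477 and 451 in heat shock with and without rapamycin, against 386 and 362 at 30 °C with and without it. That is 1.24-fold higher with the drug (1.09 to 1.41) and 1.25-fold higher without (1.05 to 1.48), and the log2 ratio without rapamycin was -0.13 on library totals. The 3 neighbouring genes on chromosome VIII thus had unlike heat ratios, with HXT1 below 1, HXT4 near 1 and HXT5 far above it.

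HXT2, a carrier of high affinity known to be induced by low glucose, read 1169 in heat shock with rapamycin and 1850.1 without, against 489 at 30 °C with rapamycin and 396 without. It was 2.39-fold higher with rapamycin (2.16 to 2.65) and 4.66-fold higher without (4.10 to 5.34). In both heat shock libraries it was the transporter with the highest level per kb of coding length, at 719 with rapamycin and 1138 without.

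HXT7, a high-affinity carrier gene, read 644 in heat shock with rapamycin and 865 without, against 84.4 at 30 °C with rapamycin and 133 without. The heat ratio was 7.55-fold with rapamycin (6.14 to 9.56) and 6.47-fold without (5.22 to 8.19). Its near-identical neighbour HXT6 read 55.7 and 72.0 in heat shock with and without rapamycin, against 1.78 and 1.43 at 30 °C, from 2 and 1 reads. With both copies summed the log2 heat ratio of the pair was 3.01 with rapamycin and 2.79 without, beside 2.92 and 2.69 for HXT7 alone.

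HXT5 encodes a carrier of moderate affinity that is known from slowly growing, starved and stressed cells. It read 848 in heat shock with rapamycin and 831 in heat shock without, against 7.11 at 30 °C with rapamycin and 21.45 at 30 °C without. At 30 °C these values rest on 8 and 15 reads, with and without the drug. HXT5 was thus the least abundant of the 10 transcripts at 30 °C. In heat shock it came close to HXT7 without rapamycin and was above it with the drug, at 477 against 376 normalised reads per kb. The heat ratio was 105-fold with rapamycin (60.3 to 277) and 37.0-fold without (23.3 to 69.7).

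HXK1, the hexokinase gene that glucose represses, had the highest level of the 10 genes in heat shock. It read 6846 in heat shock with rapamycin and 10411 without, against 667 at 30 °C with rapamycin and 643 without. It was 10.2-fold higher with rapamycin (9.52 to 11.1) and 16.2-fold higher without (14.7 to 17.8). HXK2, its paralog, read 2471 and 3307 in heat shock with and without rapamycin, against 2065 and 2277 at 30 °C with and without it. Its ratios were 1.20-fold with the drug (1.13 to 1.27) and 1.45-fold without (1.36 to 1.55), and neither passed 2-fold.

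GLK1 encodes glucokinase, which phosphorylates glucose but not fructose. It read 5015 in heat shock with rapamycin and 5672 without, against 744 at 30 °C with rapamycin and 592 without. The heat ratio was 6.73-fold with rapamycin (6.26 to 7.25) and 9.57-fold without (8.66 to 10.6). EMI2, the paralog of GLK1, read 1059.7 and 1807 in heat shock with and without rapamycin, and 254 in both 30 °C libraries. It was 4.16-fold higher with rapamycin (3.66 to 4.77) and 7.08-fold higher without (6.06 to 8.36). Both members of this pair were thus at least 4-fold higher in both arms, unlike HXK1 and HXK2, of which HXK1 alone passed 2-fold.

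**Figure D2:**
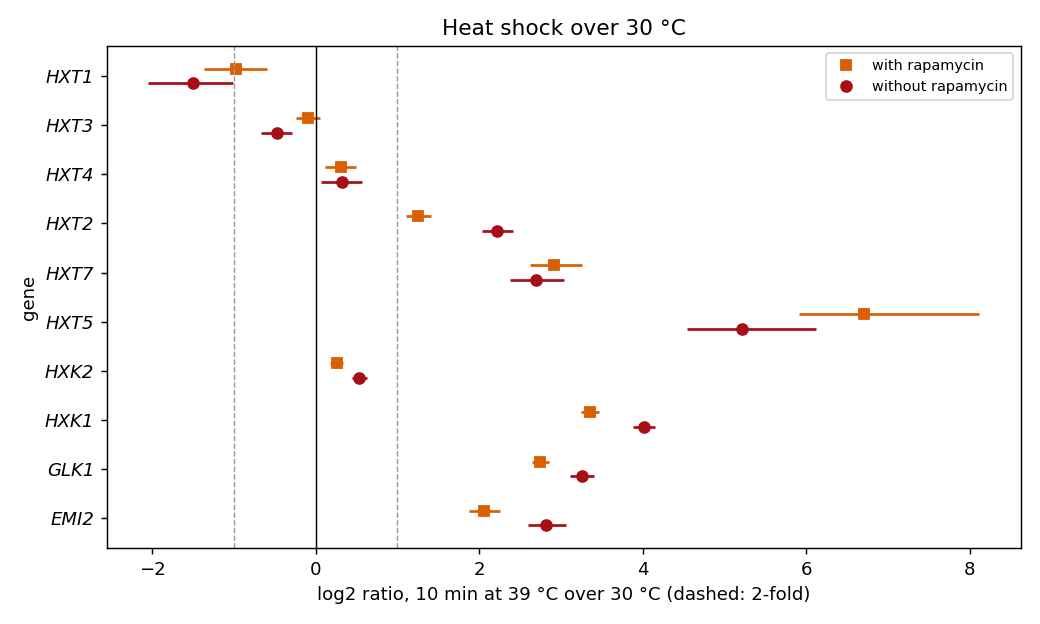
log2 ratio of 10 min at 39 °C over 30 °C for each gene, with rapamycin (squares, upper of each pair) and without (circles), with 95% counting intervals of the read ratio and dashed lines at 2-fold. HXT5 lies farthest to the right, at 6.71 with rapamycin and 5.21 without, and HXT1 farthest to the left.

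The promoters of the genes with the largest heat ratios and distinct sequence are shown because the stress response element, AGGGG on either strand, is the known binding sequence of the general stress factors Msn2 and Msn4. Each stretch is read 5′ to 3′ towards its gene and runs from the first to the last such match in the 600 bases before the coding start, with up to 10 bases on either side. Capitals mark the matches, and CCCCT is a match on the other strand. The sequences are from the RefSeq R64 assembly, at chrVIII:296737-296929 for HXT5, chrVI:255372-255649 for HXK1 and chrIV:1476635-1476841 for EMI2, all on the minus strand, and chrIII:50646-50685 for GLK1, on the plus strand.
HXT5: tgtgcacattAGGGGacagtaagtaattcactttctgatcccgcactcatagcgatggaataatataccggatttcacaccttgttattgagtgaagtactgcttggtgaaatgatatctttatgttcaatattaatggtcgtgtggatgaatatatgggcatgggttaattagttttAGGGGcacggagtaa
HXK1: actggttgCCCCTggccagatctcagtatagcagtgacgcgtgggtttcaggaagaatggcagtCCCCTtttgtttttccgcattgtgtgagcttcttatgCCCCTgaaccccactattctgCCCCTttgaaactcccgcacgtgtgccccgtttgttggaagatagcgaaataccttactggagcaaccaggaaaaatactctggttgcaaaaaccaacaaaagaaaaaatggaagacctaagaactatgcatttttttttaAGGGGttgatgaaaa
GLK1: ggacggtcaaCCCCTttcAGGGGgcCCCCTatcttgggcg
EMI2: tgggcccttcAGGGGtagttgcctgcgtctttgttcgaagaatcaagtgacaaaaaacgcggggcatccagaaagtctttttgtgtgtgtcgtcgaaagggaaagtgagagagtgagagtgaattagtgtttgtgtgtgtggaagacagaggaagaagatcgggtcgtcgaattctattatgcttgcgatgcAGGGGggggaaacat

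HXT5 held 2 matches, HXK1 5, GLK1 3 and EMI2 2. The 3 matches of GLK1 lie side by side in the stretch of 40 bases above. Over all members 8 of 10 windows held AGGGG on either strand; HXT2 and HXK2 held none, and 39.7% of 5999 windows before protein-coding genes held it. HXT7 held 3 matches and was at least 2-fold higher in heat shock. HXT2 was at least 2-fold higher without a match, and HXT1, HXT3 and HXT4 each had 1 match and were not higher by 2-fold. The heat shock element of 3 alternating units, GAANNTTCNNGAA on either strand, was in 0 of 10 windows and in 1.7% of all windows. Only this exact string was sought, and 0 of 10 is near the share of all windows. The count therefore does not show that these windows lack sites for Hsf1. The Mig1 repressor sequence, taken as the letters GGGG after a C or G and then a T or C, on either strand, was in 9 of 10 windows, HXT5 being the exception, and in 27.8% of all; none of these strings contains AGGGG. The Rgt1 repressor sequence CGGANNA on either strand was in 7 of 10 windows and in 48% of all. HXT3 held 7 Rgt1 matches and HXT1 4, while HXT7, GLK1 and EMI2 held none. A match is a run of letters and not a shown site.

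The make-up of the transporter and kinase transcripts differed between heat shock and 30 °C. Levels were compared per kb of coding length and as a share of the family sum in the same library, a measure that does not depend on how libraries were scaled. HXK2 made up 16.2% of the kinase sum in heat shock with rapamycin and 15.7% without, against 55.8% at 30 °C with rapamycin and 60.8% without. HXK1 made up 45.0% and 49.7% in heat shock with and without rapamycin, against 18.05% and 17.2% at 30 °C with and without it. The share of GLK1 was 32.0% and 26.2% in heat shock, against 19.5% and 15.4% at 30 °C, in the same order of drug and no drug. EMI2 kept a share between 6.61% and 8.36% in all 4 libraries. For HXK2 the exact binomial interval of the share of kinase reads was 15.5% to 16.6% in heat shock with rapamycin and 15.01% to 16.2% without, against 53.8% to 56.9% at 30 °C with rapamycin and 58.6% to 62.3% without. The kinase sum was 4.11-fold higher in heat shock with rapamycin and 5.61-fold higher without.

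Among the 6 transporters and HXT6, the low-affinity pair HXT1 and HXT3 held 19.6% of the sum in heat shock with rapamycin and 13.6% without, against 48.0% at 30 °C with rapamycin and 51.9% without. HXT2 held 30.7% and 40.7% in heat shock with and without rapamycin, against 27.1% and 21.6% at 30 °C. HXT5 held 20.4% and 16.7% in heat shock, against 0.360% and 1.07% at 30 °C. Without HXT6 and HXT7, whose reads are hard to divide, HXT1 and HXT3 held 23.8% and 17.0% in heat shock with and without rapamycin, against 50.2% and 55.8% at 30 °C. The lower share of the low-affinity pair in heat shock was thus present with and without the 2 near-identical genes in the sum. The transporter sum was 2.11-fold higher in heat shock with rapamycin and 2.47-fold higher without.

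**Figure D3:**
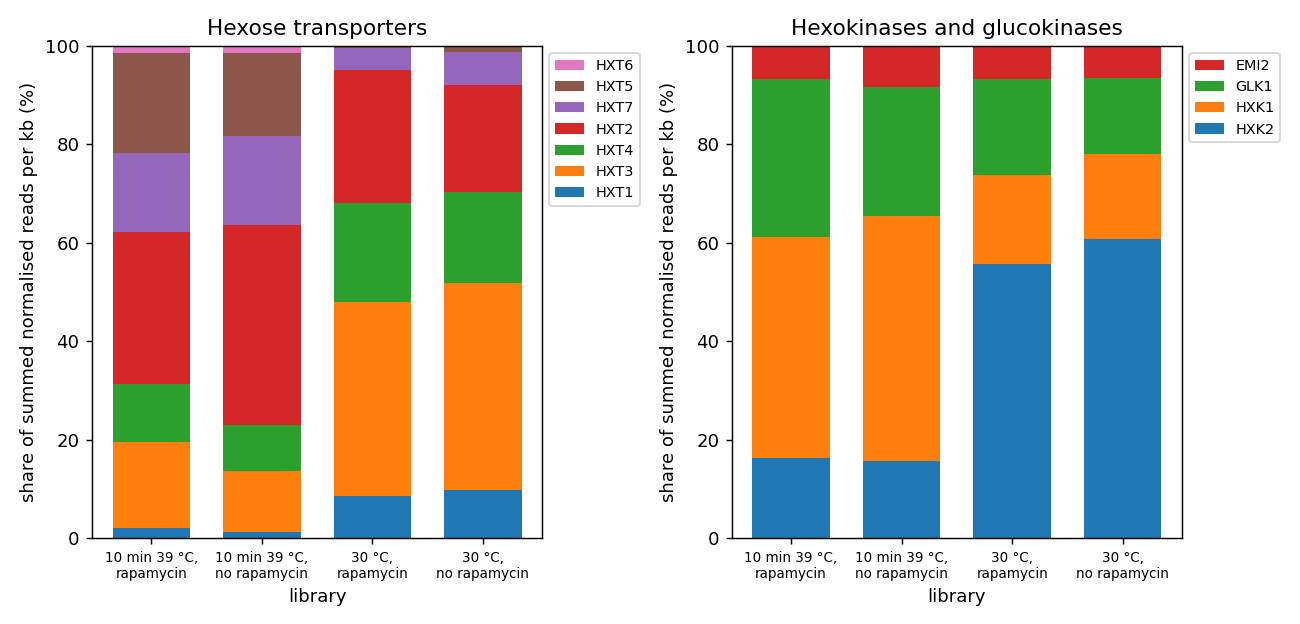
Share of each gene in the summed normalised reads per kb of its family, for the 7 transporters (left) and 4 kinases (right), with 1 bar per library. HXK2 (blue, right) fills 16.2% and 15.7% of the heat shock bars and 55.8% and 60.8% of the 30 °C bars; HXT5 (brown, left) fills 20.4% and 16.7% of the heat shock bars and 0.360% and 1.07% of the 30 °C bars.

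The order of the 10 levels per kb changed accordingly. HXK2 was first in both 30 °C libraries, at 1414 with rapamycin and 1559 without. HXK1, then GLK1, then HXK2 led both heat shock libraries, with HXK1 at 4696 with rapamycin and 7141 without. HXT1 was last in both heat shock libraries and HXT5 in both 30 °C libraries. Several neighbours in these orders had overlapping counting intervals: HXT2 and EMI2 in both heat shock libraries, HXT3 and HXT7 in heat shock with rapamycin, HXT7 and HXT5 in heat shock without, and HXK1 with both GLK1 and HXT3 in both 30 °C libraries. At 30 °C without rapamycin HXT2, HXT4 and EMI2 also formed a run of overlapping neighbours, as did HXT1 and HXT7.

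At 30 °C the comparison of rapamycin with no rapamycin asks what differs with the drug in the absence of heat. Of the 10 genes, 0 passed 2-fold upwards and 1, HXT5, downwards; 4.7% and 4.02% of all features passed those limits. HXT5 was 2.77-fold lower with rapamycin (1.20 to 8.22), from the 8 and 15 reads given above. The open reading frame YHR095W, which by its systematic name lies between HXT1 and HXT5 on the other strand, read 13309.6 in this library, against 500.4 at 30 °C without rapamycin; its part in the value of HXT5 was not tested. HXT7 was 1.57-fold lower with rapamycin (1.17 to 2.12), and its log2 ratio of -0.65 was -1.01 on library totals. HXT2 was 1.23-fold higher (1.07 to 1.43) and GLK1 1.26-fold higher (1.12 to 1.42), and both were slightly below 1 on library totals. The intervals of HXT1, HXT3, HXT4, HXK1 and EMI2 held 1, and HXK2 was 1.10-fold lower (1.03 to 1.18).

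In heat shock the comparison of rapamycin with no rapamycin found 0 of 10 genes past 2-fold upwards and 0 downwards, beside 4.56% and 2.46% of all features. HXT5 read 848 with rapamycin and 831 without, a ratio of 1.02 (0.917 to 1.14). EMI2 was 1.70-fold lower with rapamycin (1.57 to 1.85), HXT2 1.58-fold lower (1.46 to 1.71) and HXK1 1.52-fold lower (1.47 to 1.57). These 3 genes were also lower on library totals, by 0.28, 0.17 and 0.12 on the log2 scale. HXT7 and HXK2 were 1.34-fold lower each (1.20 to 1.504 and 1.26 to 1.42) and GLK1 1.13-fold lower (1.08 to 1.18), but all 3 were above 1 on library totals. HXT3 was 1.20-fold higher with rapamycin (1.06 to 1.36), and the intervals of HXT1 and HXT4 held 1. Of 10 glucose-repressed genes kept and described further on, 3 were at least 2-fold lower with rapamycin and 0 higher, with a median log2 ratio of -0.42. The largest difference among them was that of SIP4, a regulator of such genes, 11.8-fold lower (6.70 to 28.0) from 10 and 83 reads.

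**Figure D4:**
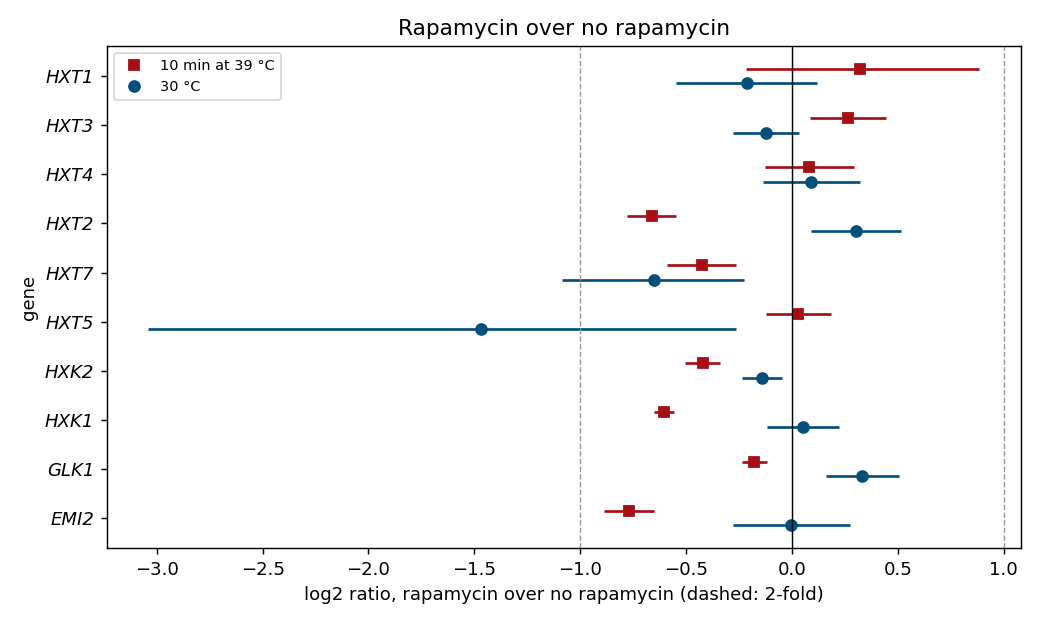
log2 ratio of rapamycin over no rapamycin for each gene, in heat shock (squares, upper of each pair) and at 30 °C (circles), with 95% counting intervals of the read ratio and dashed lines at 2-fold. HXT5 at 30 °C, at -1.47 with a wide interval, is the single value past 2-fold; the heat shock values lie between -0.77 for EMI2 and 0.32 for HXT1.

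The difference between the heat ratios of the 2 drug arms was taken as the log2 ratio with rapamycin minus the log2 ratio without. HXT5 was the 1 gene at least 2-fold apart, with a heat ratio 2.83-fold larger with rapamycin (1.22 to 8.44); 9.25% of all features passed 2-fold upwards and 8.29% downwards. Its heat shock values were alike with and without the drug, and the difference lies in the 30 °C values of 8 and 15 reads. The heat ratio of HXT2 was 1.95-fold smaller with rapamycin (1.65 to 2.31), that of EMI2 1.70-fold (1.38 to 2.10), that of HXK1 1.58-fold (1.39 to 1.78) and that of GLK1 1.42-fold (1.25 to 1.62). Those of EMI2, HXK1 and GLK1 turned to slightly larger on library totals, with log2 differences of 0.08, 0.19 and 0.34, while HXT2 kept its sign at -0.11. The heat ratio of HXT3 was 1.31-fold larger with rapamycin (1.11 to 1.55) and that of HXK2 1.21-fold smaller (1.11 to 1.32). That of HXK2 turned to larger on library totals, with a log2 difference of 0.57. The intervals for HXT1, HXT4 and HXT7 held 1.

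Other genes that handle glucose were described from lists. Of the other 11 hexose carrier genes, 4 passed the limit on low values, and HXT14, HXT15, HXT16 and HXT17 were listed at 0 in all libraries. HXT10 had 8 and 10 reads in heat shock with and without rapamycin, against 1 and 0 at 30 °C with and without it; without the drug its ratio was at least 3.50-fold, taking 3 reads per library as the floor. GAL2, the galactose permease gene, had 7, 6 and 10 reads in heat shock with rapamycin, heat shock without and 30 °C with rapamycin, and 0 at 30 °C without. HXT8 had at most 9 reads in any library.

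The 8 glucose sensing genes, among them the sensors SNF3 and RGT2 and the repressor RGT1, all stayed within 2-fold in the 4 comparisons of libraries. Most features did so too. In heat shock 18.3% of all features passed 2-fold upwards and 14.6% downwards with rapamycin, and 19.8% and 19.3% without it. For rapamycin over none the shares were 4.7% and 4.02% at 30 °C, and 4.56% and 2.46% in heat shock. The difference of heat ratios passed 2-fold upwards for 2 of the 8 sensing genes, MTH1 at 2.30-fold (1.32 to 4.15) and YCK1 at 2.04-fold (1.496 to 2.80). This count is on the deposited values, where 9.25% of all features passed. On library totals 43.8% of all features passed, and the sensing genes were not counted there. Of 15 genes of the Snf1 kinase and the Mig repressors, 2 passed 2-fold upwards and 1 downwards in heat shock with rapamycin, and 2 and 4 did so without it, beside 18.3% and 14.6% of all features with the drug and 19.8% and 19.3% without. These counts are too near those shares to be read as a result about the list. The median log2 ratio was 0.33 with the drug and -0.13 without, against -0.00 and 0.02 for all features. The higher ones were SIP2, a subunit gene of the Snf1 complex (2.45-fold with and 2.08-fold without rapamycin), and TOS3, a kinase gene that acts on Snf1 (3.43-fold and 2.71-fold). The repressor gene MIG2 read 11.5 and 3.0 in heat shock with and without rapamycin, against 45.3 and 48.6 at 30 °C, and was 3.70-fold lower with rapamycin (2.07 to 8.10) and 12.4-fold lower without (4.16 to 139). MIG3, TUP1 and MIG1 were 2.81-fold, 2.36-fold and 2.06-fold lower in heat shock without rapamycin. Their log2 heat ratios with rapamycin were -0.26, -0.67 and 0.18, inside 2-fold. The heat ratio was at least 2-fold larger with rapamycin for 6 of the 15, led by MIG2 at 3.36-fold (0.828 to 39.8), MIG3 at 2.34-fold (0.675 to 10.5) and MIG1 at 2.33-fold (1.48 to 3.75). These 6 were counted on the deposited values, where the share of all features was 9.25%. That share was 43.8% on library totals, where the list was not counted.

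Of 10 glucose-repressed genes kept, 5 were at least 2-fold higher in heat shock with rapamycin and 6 without. In either arm 0 were lower by as much. Of all features, 18.3% with rapamycin and 19.8% without passed 2-fold upwards, and 14.6% and 19.3% downwards. The median log2 ratio was 0.78 with the drug and 1.22 without, against -0.00 and 0.02 for all features. CAT8, which encodes an activator of gluconeogenic genes, was 4.75-fold higher in heat shock with rapamycin (3.33 to 7.35) and 10.5-fold without (6.01 to 23.0). JEN1, a lactate carrier gene, was 2.24-fold higher with the drug and 3.20-fold without, and ACS1, an acetyl-CoA synthetase gene, 3.22-fold and 2.47-fold. SUC2, the invertase gene, stayed under 2-fold in both arms, at 1.26-fold with the drug and 1.63-fold without. SIP4 read 9.61 in heat shock with rapamycin and 124 without, against 7.11 at 30 °C with rapamycin and 2.86 without. It was therefore high in 1 library of the 4, on 83 reads. ADR1, an activator of such genes, was 3.19-fold higher in heat shock with rapamycin and 1.998-fold without. It was lower with rapamycin at both temperatures, 1.85-fold in heat shock (1.51 to 2.27) and 2.95-fold at 30 °C (2.16 to 4.14). PCK1, the gluconeogenic carboxykinase gene, was 2.08-fold lower with it in heat shock (1.14 to 4.08) and 2.87-fold lower at 30 °C (1.12 to 10.5). The 30 °C values of PCK1 rest on 6 reads with rapamycin and 12 without. SUC2 was 2.12-fold lower with rapamycin in heat shock, and ADH2, an alcohol dehydrogenase gene, 2.88-fold higher with it at 30 °C, from 16 and 3 reads.

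Of 12 genes that act on glucose 6-phosphate or near it, 6 were at least 2-fold higher in heat shock in each arm, beside 18.3% of all features with rapamycin and 19.8% without, and the list had a median log2 ratio of 1.16 in both. PGM2, phosphoglucomutase on the way to glycogen and trehalose, was 24.8-fold higher with rapamycin and 40.9-fold without. TPS2 was 13.9-fold and 13.3-fold higher with and without the drug, and TPS1 6.46-fold and 10.04-fold; both make trehalose. UGP1, which makes UDP-glucose, was 5.48-fold and 9.07-fold higher. The glycolytic enzyme genes PGI1, PFK1 and PFK2 stayed within 2-fold, as HXK2 did, whereas PFK26 and FBP26, for the enzymes that make and break the glycolytic activator fructose 2,6-bisphosphate, were 3.63-fold and 3.90-fold higher with rapamycin and 3.27-fold and 4.95-fold without. Among 4 genes for the ubiquitylation of transporters, the adaptor genes CSR2 (6.07-fold with and 9.03-fold without rapamycin) and ROD1 (2.24-fold and 3.16-fold) passed 2-fold in heat shock, beside the same 18.3% and 19.8% of all features, and the list's median log2 ratio was 0.68 with rapamycin and 0.96 without.

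**Figure D5:**
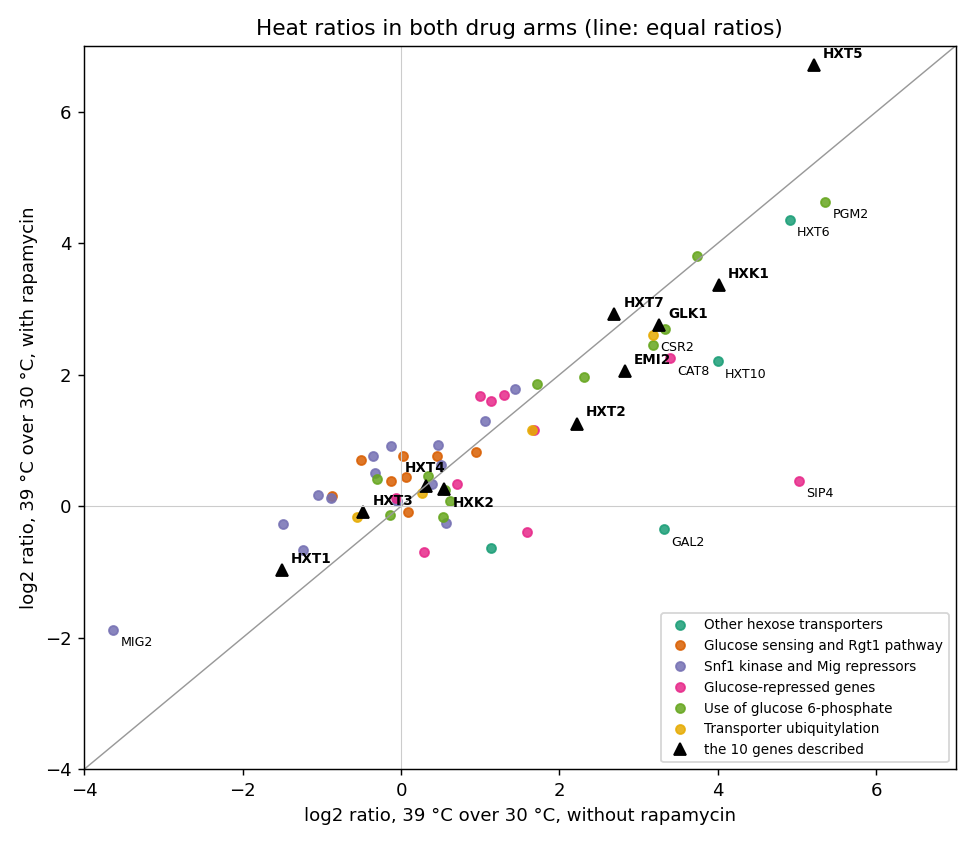
log2 heat shock ratio without rapamycin (horizontal) and with rapamycin (vertical) for the 10 genes (black triangles) and the kept genes of the 6 lists (dots), with a line of equal ratios. HXT5 lies highest, at 6.71 with rapamycin, MIG2 lies lowest, and SIP4 lies far to the right, at 5.02 without rapamycin and 0.39 with it.

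The features most like each gene were sought by the distance between log2 values centred on their mean over the 4 libraries. For GLK1 they were GDB1, the glycogen debranching enzyme gene (distance 0.0650), and TPS1 (0.104). For EMI2 they were PNC1, a nicotinamidase gene (0.0709), and YER079W (0.105). HXT2 was nearest YSC84 (0.107) and YDR003W-A (0.111). HXT7 was nearest SPO74 (0.284) and GGA1 (0.322), and HXK1 nearest YCL048W-A (0.149) and YBR085C-A (0.169). SPO74 read only 13.45 and 14.99 in heat shock with and without rapamycin, against 0.89 and 1.43 at 30 °C. YCL048W-A read 10.57 and 16.49 in heat shock and 0 in both 30 °C libraries. At such low values the distances depend on the 1 added before the log2 was taken. LYS2 and SAS3 were nearest HXT1, APN1 and DOM34 nearest HXT3, MLH2 and PAR32 nearest HXT4, and YCR099C and YIP5 nearest HXK2, at distances between 0.0289 and 0.0673. For HXT5 the nearest were GND2, a phosphogluconate dehydrogenase gene, and CTT1, the cytosolic catalase gene, at 1.09 each, and 0 features lay within 0.5. HXT3, HXT4 and HXK2 had 1083, 1116 and 866 features within 0.5, HXT1 458, HXT2 114, GLK1 44, EMI2 41, HXT7 33 and HXK1 13. With 4 libraries such distances are a description, and HXT5 had the pattern with the fewest features near it. Its own 30 °C values, 7.11 with rapamycin and 21.45 without, are low, so its distances depend on the added 1 as well.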

How the data were processed

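The deposited table holds 1 signal column per library. Its values are gene read counts that the authors divided by 1 size factor per library: whole reads were recovered for 100% of the nonzero values, with a tolerance of 0.0055. The sources used here do not say how the factors were made. Recomputing them as a median of ratios gave values no more than 0.515% away. Per the submitters' processing notes TopHat, HTSeq and the build sacCer3 were used; versions, strand handling and read length are not given in those sources.

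Ratios were taken on log2(deposited signal + 1) for features with a mean of at least 5. Folds are 2 to the power of that ratio, so they understate changes of low genes. Intervals of folds are exact conditional binomial intervals of the recovered reads, those of differences exact conditional odds ratio intervals, those of shares Clopper-Pearson and those of levels exact Poisson. All are 95% intervals of counting error only, and reads copied by PCR are not independent molecules. The code was tested on simulated data.

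The members and gene lists were chosen with earlier results of these data known. Named are the 10 members, up to 3 genes per list and comparison with the largest ratio past 2-fold, the 2 features nearest each member, and HSF1, MSN2, MSN4, FPR1 and TOR1. MSN2 read between 118 and 210.4 and MSN4 between 179.9 and 271. Other list genes named for staying within 2-fold, for low reads or as a pair, and YHR095W, were chosen after their values were seen. As an alternative, edgeR 4.0.16 (quasi-likelihood test, Benjamini-Hochberg adjustment) was fitted to the recovered reads with an additive model. Python 3.11.15, SciPy 1.17.1 and Biopython 1.88 were used. Genes were matched by systematic name, 6048 of 7126 features, to RefSeq R64.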

Additional observations from a re-analysis of the deposited data

Results flagged for a closer look

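SIP4, a regulator of glucose-repressed genes, differed between the temperatures in the direction of its rapamycin ratio, by at least 2-fold each way. It was 11.8-fold lower with rapamycin in heat shock (6.70 to 28.0), from 10 reads with and 83 without the drug. At 30 °C it was 2.10-fold higher with rapamycin (0.496 to 24.0), from 8 and 2 reads. The log2 ratios differed by -4.63. This difference was not tested, since each group held 1 library, and the 30 °C ratio has an interval that holds 1. None of the 10 transporter and kinase genes met the same rule.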

How the results depend on the processing

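The 6 genes at least 2-fold higher in heat shock (HXT2, HXT5, HXT7, HXK1, GLK1 and EMI2) passed 2-fold in both drug arms under every setting tried: 4 other scalings, pseudocounts of 0.25 and 5, limits on low values of 1, 20 and none, and HXT6 added to HXT7. Over all settings the 150 ratios past 2-fold gave 0 that dropped below it, and 5 of 350 ratios below it passed it. The limits on low values cannot alter the ratios of the 10 genes, and adding HXT6 can alter HXT7 alone. These counts include such fixed ratios, so only the scalings and pseudocounts bear on all 10 genes. Division by the library total shifted the median log2 ratio of all features by -0.44 for heat shock without rapamycin, 0.40 for heat shock with it, -0.35 for rapamycin at 30 °C, 0.48 for rapamycin in heat shock and 0.84 for the difference of heat ratios. With it, 2 genes (HXT5 and HXT7) were at least 2-fold lower with rapamycin at 30 °C, beside 10.3% of all features, and 4 genes (HXT1, HXT3, HXT5 and HXT7) had a heat ratio at least 2-fold larger with rapamycin, beside 43.8%. The protein-coding total gave 2 such genes (HXT1 and HXT5), beside 28% of all features, so neither count of larger heat ratios is above the share of all features. Of all features past 2-fold, the higher ones in the same 5 comparisons were 50.6%, 55.6%, 53.9%, 64.9% and 52.7% as deposited, 29.9%, 78.5%, 16.4%, 92.03% and 94.97% on library totals, and 35.1%, 70.9%, 25.1%, 86.6% and 89.7% on protein-coding totals. edgeR's quasi-likelihood test with 1 residual degree of freedom, which compares these libraries and not the conditions, called 1104 features higher and 1051 lower in heat shock, 7 of the 10 genes among them (the 6 above and HXT1). For rapamycin it called 0 features higher and 1 lower at an adjusted p under 0.05, with 342 at an unadjusted p under 0.05, and 0 of the 10 genes by either. No paired analysis was possible because the groups, of 1 library each, share fewer than 2 replicate numbers; the additive model compares heat shock with 30 °C within each drug arm, and without any 1 library it has no residual degree of freedom. The depth limits HXT5, HXT6, HXT8, HXT10, GAL2, PCK1 and SIP4 at 30 °C, which had 15 reads or fewer in both libraries. At 30 °C without rapamycin it also limits CAT8, JEN1, CSR2 and ADH2, with 11, 11, 14 and 3 reads. In heat shock MIG2 had 12 and 2 reads with and without rapamycin, and MIG3 had 5 without it.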

Other observations

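YHR095W, an open reading frame that the RefSeq annotation used here does not list, read 13309.6 at 30 °C with rapamycin, from 14982 reads, and between 500.4 and 554 in the other 3 libraries. Its systematic name places it between HXT1 and HXT5. HXT1 read 163 and HXT5 7.11 in the library where it was high. It was 26.5-fold higher with rapamycin at 30 °C and 1.11-fold higher with rapamycin in heat shock.

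YFR052C-A, which by its name lies next to HXK1 and is also not in that annotation, read 243 in heat shock with rapamycin and 400.3 without, against 16.0 at 30 °C with rapamycin and 37.2 without. Its heat ratios were 14.4-fold with the drug and 10.5-fold without, beside 10.2-fold and 16.2-fold for HXK1. Whether reads of 1 were counted for the other was not tested. PAL2, the gene on the far side of HXT5, was 6.55-fold higher in heat shock with rapamycin and 3.62-fold higher without. AHT1, between HXT4 and HXT1, had 4 reads in heat shock with rapamycin and 0 in the other libraries.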
